A study of Mus musculus with 16 samples.

Results

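Granule-primed cells were LSK cells chosen by their transcripts of 4 genes of the azurophil granule, the first granule a developing neutrophil makes. LSK cells lack lineage markers and carry Sca-1 and Kit on their surface, and the fraction holds blood stem cells and multipotent progenitors. A cell was taken as granule-primed when its molecules of Mpo, Prtn3, Ctsg and Elane came to at least 3 and it held at most 1 molecule of Dntt. By this gate 973 of 5157 kept cells were granule-primed and the other 4184 kept cells were the cells they were set against within each library. Of those 4184 cells, 121 reached 3 granule molecules but held 2 or more of Dntt, the lymphoid DNA polymerase TdT.

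The cells came from C57BL/6J mice. Control fetal liver cells carrying CD45.1 and fetal liver cells deficient in both Regnase-1 and Regnase-3 carrying CD45.2 were mixed at equal parts, and the mixture was given to lethally irradiated hosts carrying both CD45 forms. LSK cells of the bone marrow were sorted 1 per well 4 weeks later and sequenced by MARS-seq, which counts unique molecular identifiers (UMIs) at the 3′ ends of mRNA. The labels name 1 group of 16 libraries, numbered here 1 to 16; gating against surviving host cells was not analysed here. Genotype and mouse of a well were not analysed here, so granule-primed and other cells each may hold both genotypes in parts that were not measured, and p-values measure only the spread between libraries, which may share mice.

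Neutrophil granule proteins are made in waves. Mpo encodes myeloperoxidase, which makes hypochlorous acid, while Prtn3 (proteinase 3), Ctsg (cathepsin G) and Elane (neutrophil elastase) encode serine proteases that are stored with it. Their transcripts mark granulocyte and monocyte progenitors, and proteins of later granules such as lactoferrin follow at later stages of neutrophil development. The transcription factors PU.1 and C/EBPα are known regulators of these genes.

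The promoters of the 4 genes are shown because these genes chose the cells and were read together in them. Each window is the RefSeq promoter of build GRCm38.p6, 300 bases from 250 before the annotated start, printed 5′ to 3′ along the gene. Capitals mark GAGGAA, a core bound by PU.1 and other ETS factors, which was searched on both strands (TTCCTC on the other).
Mpo, chr11:87793534-87793833, plus strand: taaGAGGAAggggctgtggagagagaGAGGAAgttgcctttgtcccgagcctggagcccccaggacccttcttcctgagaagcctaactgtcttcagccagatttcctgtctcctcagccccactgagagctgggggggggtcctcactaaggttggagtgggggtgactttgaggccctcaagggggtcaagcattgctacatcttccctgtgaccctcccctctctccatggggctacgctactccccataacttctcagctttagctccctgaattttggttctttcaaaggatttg
Prtn3, chr10:79879417-79879716, plus strand: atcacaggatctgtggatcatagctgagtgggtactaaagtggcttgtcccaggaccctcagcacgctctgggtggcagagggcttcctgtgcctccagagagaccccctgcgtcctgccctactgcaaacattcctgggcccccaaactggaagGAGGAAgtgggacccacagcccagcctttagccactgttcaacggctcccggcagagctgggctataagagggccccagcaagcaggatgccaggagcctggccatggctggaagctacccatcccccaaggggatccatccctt
Ctsg, chr14:56102525-56102824, minus strand: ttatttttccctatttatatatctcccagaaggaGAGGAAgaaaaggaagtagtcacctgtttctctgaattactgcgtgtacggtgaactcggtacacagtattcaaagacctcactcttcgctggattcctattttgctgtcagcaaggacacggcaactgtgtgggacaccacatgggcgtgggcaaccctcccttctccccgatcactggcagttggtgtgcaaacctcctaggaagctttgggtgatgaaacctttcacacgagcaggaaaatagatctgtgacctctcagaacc
Elane, chr10:79886062-79886361, plus strand: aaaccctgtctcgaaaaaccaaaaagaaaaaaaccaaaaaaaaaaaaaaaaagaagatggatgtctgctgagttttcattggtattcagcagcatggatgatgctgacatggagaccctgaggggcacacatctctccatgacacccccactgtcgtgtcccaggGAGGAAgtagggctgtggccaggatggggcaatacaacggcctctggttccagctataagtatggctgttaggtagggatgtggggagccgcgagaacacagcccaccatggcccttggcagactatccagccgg
GAGGAA stood in all 4 windows and each time on the printed strand, with 2 matches for Mpo and 1 for each of the others. With the start base counted as 0, the match began at -95 for Prtn3 and at -85 for Elane, at -216 for Ctsg, and at -247 and -224 for Mpo. Of 27025 mouse promoters of the same length, 28.3% held GAGGAA on either strand. The C/EBP form TTNNGNAA, searched on both strands as TTNNGNAA and TTNCNNAA, had no match in any of the 4 windows, and 40.7% of the promoters held it. A match of letters is a description of the window and not a binding site. Prtn3 and Elane are neighbours on chromosome 10, with 3137 bases between the end of one and the start of the other. Exons of Mpo overlap exons of Gm11505, and exons of Prtn3 overlap those of Plppr3, each on the opposite strand, and whether strand was used in counting is not given.

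The libraries held 521435 to 822534 UMIs and 295 to 345 kept cells, with a median of 1146 to 1993 UMIs per kept cell. No well name occurred in more than 1 library. Empty wells (60 in the well table) had 801 UMIs in all, of which 1 was of a granule gene (Mpo). Sequencing batch SB341 held libraries 2 to 10 and batch SB343 held libraries 11 to 16. Library 1 is not in the well table, so neither its batch nor the number of cells per well is known.

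Granule-primed cells were present in every library, at very unequal shares. The lowest library counted 22 of them, the median was 57 and the highest was 120. As a share of kept cells this was 6.98% at the lowest, in library 5 (95% Wilson interval 4.66% to 10.35%), with a median of 16.9% and a highest value of 34.8%, in library 12 (29.95% to 39.95%). These intervals cover counting error only. In the 9 libraries of SB341 the share was 6.98% to 21.5%, and in the 6 libraries of SB343 it was 21.9% to 34.8%, so the ranges of the batches did not overlap. They nearly touched: library 9 of SB341 had 21.5% (17.43% to 26.2%) and library 15 of SB343 had 21.9% (17.69% to 26.72%). The labels give no reason to place these libraries in different groups, and batch and any other difference between the plates cannot be told apart.

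**Figure D1:**
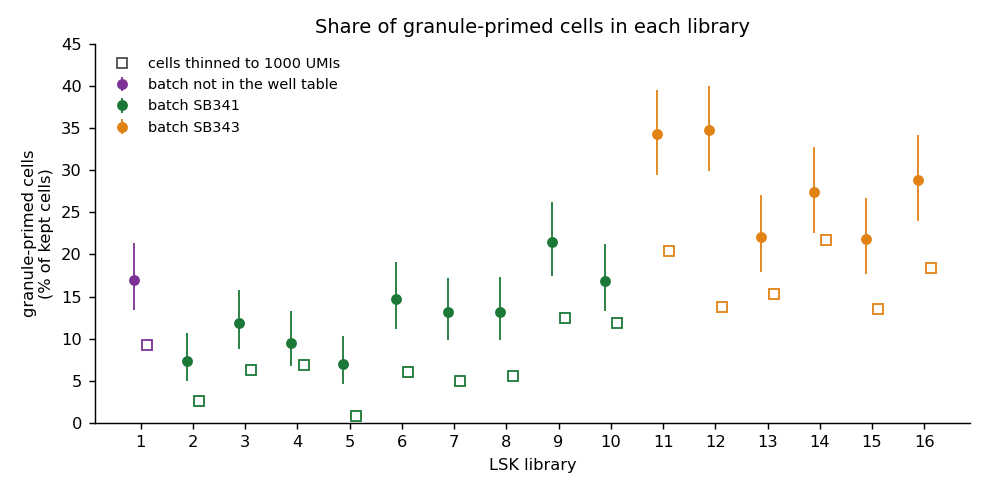
Granule-primed cells as a percentage of kept cells in each of the 16 LSK libraries (filled points, bars are 95% Wilson intervals) and the same after each cell was thinned to 1000 UMIs (open squares), coloured by sequencing batch. Shares ran from 6.98% to 34.8%, and the thinned shares from 0.848% to 21.7%.

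The gate counts molecules, so it reaches deeply read cells more easily. Granule-primed cells had a median of 2683 UMIs and the other cells 1386.5, and 4.625% of granule-primed cells against 30.4% of other cells lay under 1000 UMIs. When each cell was thinned to 1000 UMIs before the gate and shallower cells were left out, the share was 0.848% to 21.7% with a median of 10.6%, 0.848% to 12.4% in SB341 and 13.5% to 21.7% in SB343. The ranges of the batches did not overlap at equal depth either, but the libraries of SB341 differed among themselves: libraries 9 and 10 stood at 12.4% and 11.9%, near the lowest of SB343, and libraries 2 to 8 at 0.848% to 6.86%. Library 1, of no listed batch, stood at 9.29%. Just inside the gate stood 279 cells with 3 granule UMIs, of which 85.3% had a UMI of Mpo and 22.9% one of Ctsg. Just outside stood 472 cells with 2 granule UMIs, of which 65.5% had a UMI of Mpo and 13.1% one of Ctsg. The median depth was 2036 UMIs at 3 granule UMIs and 1839.5 at 2.

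The genes that chose the cells are described here without a test. Values are CPM, UMI counts of a library and class scaled to the same total. Mpo stood at 747.5 CPM in the lowest library, 1240 at the median and 1904 in the highest in granule-primed cells, against 134.7, 198.0 and 437.8 CPM in other cells. Prtn3 had 392.2, 651.1 and 970.2 CPM in granule-primed cells, against 99.96, 114.2 and 227.8 CPM in other cells. Ctsg had 126.7, 395.1 and 679.1 CPM in granule-primed cells, against 13.9, 35.7 and 71.7 CPM in other cells. For these 3 genes the lowest granule-primed library was above the highest of the other cells. Elane had 0, 90.3 and 377.6 CPM in granule-primed cells, against 7.80, 32.3 and 89.0 CPM in other cells, and here the ranges overlapped. Granule-primed cells held 73.1% of all UMIs of the 4 genes in kept cells, and 42.7% of other cells also had at least 1 granule UMI.

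**Figure D2:**
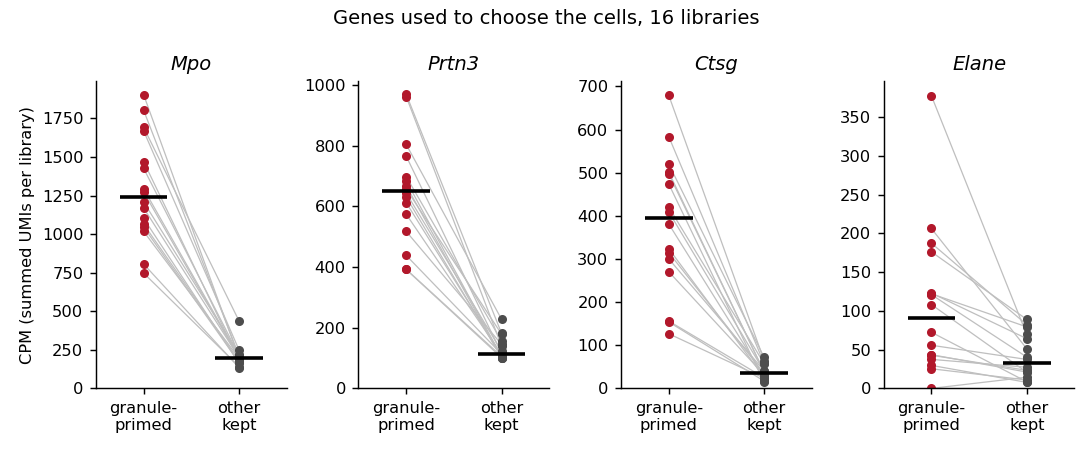
CPM of Mpo, Prtn3, Ctsg and Elane in the summed UMIs of granule-primed cells (left) and other kept cells (right) of each of the 16 libraries; lines join the classes of a library and bars are medians. The classes are apart by construction for Mpo, Prtn3 and Ctsg, while Elane ranges overlap, from 0 to 377.6 CPM in granule-primed cells and from 7.80 to 89.0 CPM in other cells.

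When each of the 4 genes was left out of its own gate, its median over libraries was higher in the chosen cells. This is a description without a test, since these genes set the gate. Cells chosen by 3 or more UMIs of the other 3 genes numbered 473 for Mpo, and Mpo stood at a median of 1305 CPM over libraries in them, against 350.5 CPM in the rest. Prtn3 stood at 532.8 CPM in the 713 cells chosen without it, against 188.5 CPM in the rest. Ctsg stood at 354.4 CPM in 889 cells, against 47.9 CPM in the rest. Each of these 3 genes was higher in the chosen cells in 16 of 16 libraries. Elane was higher in 12 of 16, at 83.3 CPM in the 920 cells chosen without it, against 34.8 CPM in the rest. In 1 library the chosen cells had no Elane UMI. The chosen cells were deeper, with medians of 2709.5 to 3149 UMIs over the 4 gates, against 1395 to 1464 in the rest. The part of depth in these differences was not tested.

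Granule-primed cells were uneven among themselves. Most carried few granule molecules: the median was 5, the highest 158, and 208 cells (21.4%) had 10 or more. All 4 genes were detected in 88 cells, 3 in 325, 2 in 408 and 1 in 152. Mpo supplied 52.3% of their granule UMIs and was the most counted of the 4 in 583 cells, Prtn3 in 196, Ctsg in 69 and Elane in 8, with ties in 117. Mpo alone met the gate in 116 cells. Elane was concentrated: 9 cells with 5 or more Elane UMIs, in 5 libraries, held 36.0% of its 420 UMIs in granule-primed cells, and their median was 92 granule UMIs.

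The tested comparison set UMIs summed over granule-primed cells against those of other kept cells in the same library, in 16 pairs, without the 5 genes of the gate. Since a cell's own transcripts decide its class, genes that vary with the gate genes differ by construction, and the p-values are smaller than those of groups set by a label. Of 5489 genes tested, 130 were higher (2.37%) and 125 lower (2.28%) in granule-primed cells, by the quasi-likelihood test of edgeR at an adjusted p of 0.05 (Benjamini-Hochberg), and the median log2 fold change over all genes was 0.00. Against other cells matched one to one on UMIs within library, 39 of the same 5489 genes were higher (0.711%) and 36 lower (0.656%), and 32 and 33 of these were among the calls against all other cells. The log2 fold changes that follow are granule-primed over other cells ± SE, and adjusted p-values come from this edgeR fit. The SE is an approximation, the size of the log2 fold change divided by the square root of the test's F statistic.

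The largest rises included a hexokinase, a chemokine, a flippase and a chaperone. Hk3, a hexokinase of myeloid cells, had 13.5, 65.0 and 121.5 CPM (lowest, median and highest library) in granule-primed cells, against 3.49, 13.7 and 40.02 CPM in other cells, a log2 fold change of 1.73 ± 0.20 (adjusted p = 9.51e-11). It was higher in 16 of 16 libraries although the ranges overlapped, and its exons overlap those of Unc5a on the opposite strand. Ccl9, a chemokine that attracts myeloid cells, had 50.7, 251.9 and 400.6 CPM in granule-primed cells, against 35.9, 74.7 and 149.5 CPM in other cells, with a log2 fold change of 1.5 ± 0.11 (adjusted p = 1.22e-19). A UMI of Ccl9 was found in 40.4% of granule-primed cells, against 14.2% of the depth-matched and 9.51% of all other cells. Atp8b4, a phospholipid flippase, differed by 1.47 ± 0.21 (adjusted p = 2e-07). Calr, the endoplasmic reticulum chaperone calreticulin, had 528.0, 933.7 and 1216 CPM in granule-primed cells, against 315.1, 561.6 and 711.4 CPM in other cells, a log2 fold change of 0.67 ± 0.05 (adjusted p = 1.22e-19), and was higher in every library.

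The rises also included an adaptor, a glycolytic enzyme and a transcription factor. Lgals1, the lectin galectin-1, rose by 0.58 ± 0.07, in 16 of 16 libraries. Tyrobp, the signalling adaptor DAP12, rose by 0.79 ± 0.12 and Parp8 by 0.74 ± 0.16. Pgam1, a phosphoglycerate mutase of glycolysis, had 145.8, 258.4 and 438.7 CPM in granule-primed cells, against 119.6, 157.4 and 180.8 CPM in other cells, a log2 fold change of 0.77 ± 0.08 (adjusted p = 1.03e-11). Irf8, a transcription factor of monocyte and dendritic cell development, rose by 0.95 ± 0.16 (adjusted p = 5.46e-06), the linker histone gene Hist1h1b by 0.76 ± 0.12 and Pola1, a subunit of DNA polymerase alpha, by 0.60 ± 0.16. Against depth-matched cells these last 3 no longer passed, with values of 0.53, 0.29 and 0.22 (adjusted p = 0.129, 0.426 and 0.802), whereas the other rises named here stayed called.

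Several of the largest falls were of genes on the megakaryocyte and erythroid list and on the stem cell list. Car2, carbonic anhydrase 2 of the erythroid lineage, had 189.7, 342.4 and 458.6 CPM in granule-primed cells, against 492.9, 621.1 and 871.1 CPM in other cells, a log2 fold change of -0.99 ± 0.06 (adjusted p = 4.72e-24). Its ranges did not overlap, and it was the only one of the genes of largest change named here for which this held. Pf4, the platelet chemokine, had 0, 7.09 and 92.8 CPM in granule-primed cells, against 12.6, 66.9 and 450.4 CPM in other cells, with a log2 fold change of -2.70 ± 0.23 (adjusted p = 3.36e-16). Apoe, the lipid carrier apolipoprotein E, had 12.7, 86.5 and 131.1 CPM in granule-primed cells, against 83.5, 187.1 and 432.3 CPM in other cells, a change of -1.41 ± 0.12 (adjusted p = 9.83e-16). Both were lower in all 16 libraries. Gata2, a transcription factor of stem and mast cells, changed by -0.82 ± 0.17.

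Mycn, a growth-promoting transcription factor, had a median of 14.1 CPM in granule-primed cells, against 54.9 CPM in other cells, and a log2 fold change of -1.72 ± 0.22 (adjusted p = 1.03e-08). Plxnc1, a semaphorin receptor, fell by 1.09 on the log2 scale, Pglyrp2 by 0.99, Il12a by 0.87, Tsc22d1 by 0.80, Gimap6 by 0.79 and Ifi27l2a by 0.77. All the falls named here were still called against depth-matched cells, where the value was -3.15 ± 0.25 for Pf4 and -0.84 ± 0.08 for Car2. Exons of Plxnc1 overlap those of Gm48718 on the same strand, and exons of Pglyrp2 overlap those of CT485616.1 on the opposite strand.

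**Figure D3:**
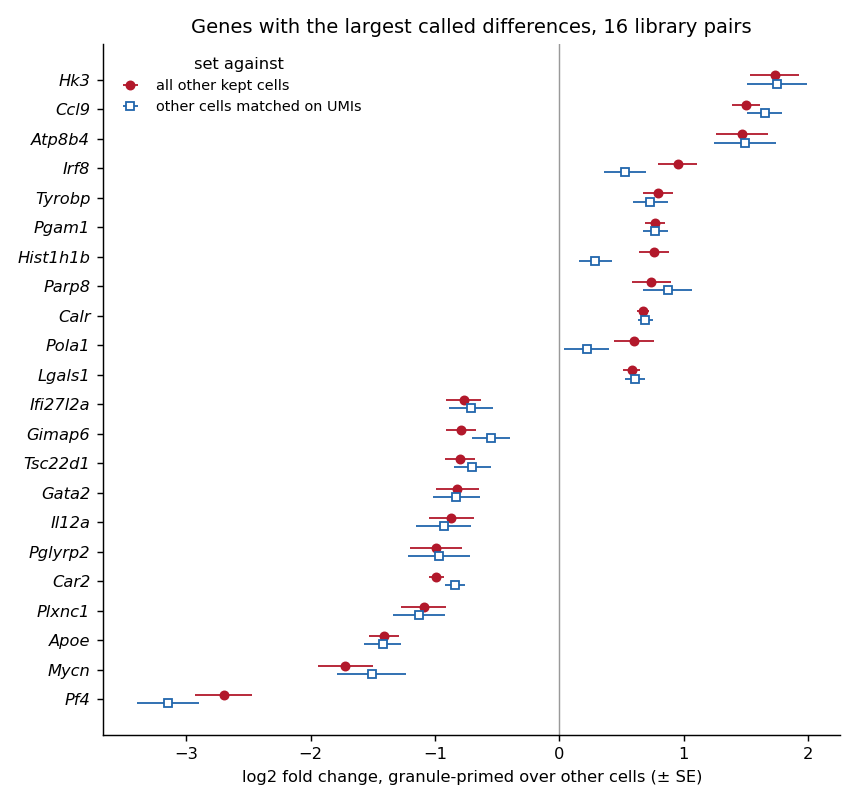
Log2 fold change of 11 of the 12 genes with the largest called rises and 11 of the 12 with the largest called falls. Granule-primed cells are set over all other kept cells (filled circles) and over other cells matched on UMIs (open squares). Bars are ± SE derived from the edgeR F statistic (16 library pairs). Hk3 stands at 1.73 and 1.75, Pf4 at -2.70 and -3.15; Irf8, Hist1h1b and Pola1 move towards 0 when depth is matched.

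Of the azurophil granule's other components, 15 of 17 listed genes were tested and 3 were called higher, none lower, with a median log2 fold change of 0.02. These were Cst7 (cystatin F, an inhibitor of lysosomal proteases, 0.70 ± 0.16), Ctsz (a lysosomal cysteine protease, 0.72 ± 0.16) and Hexa (a subunit of hexosaminidase, 0.55 ± 0.14). With depth matched, where 973 other cells stood in place of 4184, only Cst7 was still called (0.82 ± 0.19, adjusted p = 0.00431). Ctsz stood at 0.61 ± 0.19 and Hexa at 0.54 ± 0.18 there (adjusted p = 0.0863 and 0.148), so their values moved little while their SE was larger. Srgn, the proteoglycan that packs granule proteins, had a median of 1147 CPM in granule-primed cells and 1163 CPM in other cells, a change of -0.05 ± 0.04 (adjusted p = 0.594). Lyz2, lysozyme M, had 181.3 CPM in granule-primed cells and 173.1 CPM in other cells (0.01 ± 0.09, adjusted p = 0.983). Prss57, a further granule protease, had 75 UMIs in granule-primed cells and 106 in other cells and was too low to be tested.

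Genes of later neutrophil granules were at or near 0. Of 20 listed genes, 9 had no UMI in granule-primed cells, among them Ltf (lactoferrin), Ngp and the neutrophil surface marker Ly6g. Camp had 2 UMIs in granule-primed cells and 5 in other cells, Lcn2 had 1 in granule-primed and 4 in other cells, and S100a8 had 3 in granule-primed and 19 in other cells. Hp and Mmp8 went the other way, with 11 and 6 UMIs in granule-primed cells, against 2 and 0 in other cells. In the edgeR fit without a filter on low counts neither was called (2.2 and 2.0, adjusted p = 0.417 and 0.571). The most counted of the list were Anxa1, with 255 UMIs in granule-primed cells and 574 in other cells, and Padi4, with 65 in granule-primed and 194 in other cells. The name granule-primed thus rests on the azurophil granule genes of the gate, and markers of mature neutrophils were at or near 0.

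The granulocyte progenitor list had the highest median of the lists with at least 4 genes tested. Of 18 listed, 9 were tested and 6 were called higher and none lower, with a median log2 fold change of 0.64; with depth matched, 5 were higher and none lower, with a median of 0.67. Plac8, a small cysteine-rich protein of early myeloid cells, had 1495, 2001 and 2637 CPM in granule-primed cells, against 1168, 1471 and 1808 CPM in other cells (0.48 ± 0.04, adjusted p = 6.02e-19). Fcer1g, the Fc receptor gamma chain, rose by 0.66 ± 0.19 (adjusted p = 0.0295). Alas1, the first enzyme of haem synthesis, rose by 0.68 ± 0.18 (adjusted p = 0.00976), with 0.67 at matched depth (adjusted p = 0.104). Clec12a, also on the list, did not pass (0.16 ± 0.22, adjusted p = 0.783).

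The other 9 genes of the granulocyte progenitor list were too low for that fit and were read in the fit without a filter on low counts. There 62 of 22651 genes were called higher (0.274%) and 278 lower (1.23%), and the median log2 fold change was -0.16, against 0.00 in the first fit. Adjusted p-values of the 2 edgeR fits are not on 1 scale. Car2 had 4.25e-56 without the filter and 4.72e-24 with it, and Irf8 had 1.77e-05 and 5.46e-06. Values without a filter, here and below, carry these limits. Of the 9, 3 were called higher and none lower. Ly6c2, a surface antigen of monocytes and their progenitors, had 163 UMIs in granule-primed cells and 27 in other cells, with a log2 fold change of 3.10 (adjusted p = 1.54e-17). These UMIs came from 44 granule-primed cells (4.52%), up to 20 in a cell, against 1.03% of the depth-matched and 0.526% of all other cells. Ms4a3, a marker of granulocyte and monocyte progenitors, had 97 UMIs in granule-primed cells and 61 in other cells (1.46, adjusted p = 1.65e-04). Rab44, a large Rab GTPase, had 83 UMIs in granule-primed cells and 53 in other cells (1.64, adjusted p = 2.61e-05). Each was found in a small part of the cells. Ms4a3 had a UMI in 5.55% of granule-primed cells, against 2.98% of the depth-matched and 1.36% of all other cells, and Rab44 in 6.17% of granule-primed cells, against 2.06% of the depth-matched and 1.10% of all other cells. The remaining 6 did not pass. Cd33, a myeloid surface receptor, had 9 UMIs in granule-primed cells and 68 in other cells (-1.34, adjusted p = 0.233), and was lower in 11 of 16 libraries. Trem3 had 11 UMIs in granule-primed cells and 2 in other cells (adjusted p = 0.329), and Fcgr3, Hgf, Dmkn and Pram1 had 0 to 40 UMIs in granule-primed cells and 2 to 78 in other cells (adjusted p = 0.911 for each).

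Among 18 myeloid transcription factors, 9 were tested and Irf8 alone was called, with the limit on depth given above. Spi1, which encodes PU.1, had a median of 79.5 CPM in granule-primed cells and 64.3 CPM in other cells (0.24 ± 0.15, adjusted p = 0.429). Cebpa had 90 UMIs in granule-primed cells and 125 in other cells, higher in 13 of 16 libraries, with 0.65 in the fit without a filter (adjusted p = 0.283). Gfi1, a repressor needed for neutrophil formation, had 79 UMIs in granule-primed cells and 184 in other cells, and Cebpe, a regulator of later granules, had 6 in granule-primed and 7 in other cells. Of 18 myeloid cytokine receptors 7 were tested and none was called. Csf3r, the receptor of G-CSF, stood at 0.31 ± 0.19 (adjusted p = 0.438) against all other cells and at 0.99 against depth-matched cells (adjusted p = 0.0241), so its call depended on the cells it was set against. Csf1r, the receptor of M-CSF, had 95 UMIs in granule-primed cells and 65 in other cells (1.46 without a filter, adjusted p = 1.14e-04).

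Among monocyte and dendritic cell genes, the 3 called falls were all of MHC class II genes, and monocyte genes were among the rises. Whether granule-primed cells leaned to neutrophils or to monocytes was not tested. Of 18 listed, 10 were tested, 1 was higher and 3 lower, with a median of -0.29. Ms4a6c, a membrane protein of monocytes, rose by 0.89 ± 0.16 (adjusted p = 6.52e-05). The MHC class II genes Cd74, H2-Aa and H2-Eb1, which dendritic cells and B cells use to present antigen, fell by 0.80, 0.69 and 0.71 on the log2 scale. Of these, Cd74 was still called with depth matched (-0.75 ± 0.21, adjusted p = 0.0476). H2-Eb1 stood at -0.78 ± 0.24 and H2-Aa at -0.52 ± 0.17 there (adjusted p = 0.0858 and 0.133). F13a1, coagulation factor XIII of monocytes, had 54 UMIs in 27 granule-primed cells and 6 UMIs in other cells (3.43 without a filter, adjusted p = 5.16e-07), and Ccr2, the chemokine receptor of inflammatory monocytes, 46 UMIs in granule-primed cells and 25 in other cells (1.85, adjusted p = 0.00334). Of 11 mast cell, basophil and eosinophil genes 1 was tested and not called. Mcpt8, a basophil protease, had 54 UMIs in granule-primed cells and 21 in other cells (2.31 without a filter, adjusted p = 1.39e-05), and the list's summed level was 20.3 to 300.2 CPM in granule-primed cells and 22.2 to 69.6 CPM in other cells. The part of such cells in the granule gene levels was not tested.

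Stem cell genes were lower where they were called. Of 24 listed, 15 were tested, none was higher and 10 were lower, with a median log2 fold change of -0.53. With depth matched 5 were lower, with a median of -0.49. Ly6a, which encodes Sca-1, one of the sorted surface proteins, had 41.4, 150.8 and 225.7 CPM in granule-primed cells, against 159.0, 250.6 and 308.8 CPM in other cells (-0.72 ± 0.10, adjusted p = 1.79e-08). Pdzk1ip1, a membrane protein of stem cells, changed by -1.30 ± 0.23 and Meis1, a homeobox factor of stem cells, by -0.76 ± 0.13. With depth matched Meis1 stood at -0.55 ± 0.17 (adjusted p = 0.0803). Hlf, a stem cell transcription factor, went to -0.20 with depth matched (adjusted p = 0.723), against -0.52 ± 0.11 (adjusted p = 4.20e-04) beside all other cells. Of the genes too low for the filter, Mecom, a regulator of stem cell self-renewal, had 25 UMIs in granule-primed cells and 190 in other cells (-1.61, adjusted p = 7.73e-05), and Slamf1, the stem cell antigen CD150, had 2 UMIs in granule-primed cells and 54 in other cells, a ratio of 0.0902 (95% counting interval 0.0106 to 0.342; adjusted p = 0.00258 without a filter).

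Megakaryocyte and erythroid genes were the list with the lowest median, -0.78: of 18 listed, 10 were tested, none was higher and 7 were lower, and 5 were lower with depth matched. Besides Pf4, Apoe and Car2 these were Car1 (carbonic anhydrase 1, -1.32 ± 0.26), Zfpm1 (the GATA cofactor FOG1, -0.81 ± 0.13), Hbb-bt (a beta globin, -0.75 ± 0.11) and Rap1b (a platelet GTPase, -0.30 ± 0.09). Hbb-bt and Rap1b did not pass with depth matched (adjusted p = 0.566 and 0.386), and reads of Hbb-bt may be shared with its near-identical neighbour Hbb-bs. The summed level of the list was 959.3 to 1809 CPM in granule-primed cells and 1587 to 3265 CPM in other cells, lower in 16 of 16 libraries. Gata1, the master regulator of these lineages, had 30 UMIs in granule-primed cells and 172 in other cells (-1.63 without a filter, adjusted p = 4.79e-05).

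Of 24 lymphoid genes 16 were tested, none was higher and 4 were lower, with a median of -0.22. The gate's limit on Dntt removes lymphoid-primed cells from the granule-primed class alone, so this direction is set at least in part by the rule. The list summed to a median of 1734 CPM in granule-primed cells and 2110.5 CPM in all other cells. In cells with at most 1 Dntt UMI it was 1788, 1631 and 1680.5 CPM at 0, 1 and 2 granule UMIs. The p-values of lymphoid genes, that of Il7r included, carry this limit. Besides Il12a and Tsc22d1 the falls were of Bcl11a (a transcription factor of lymphoid and dendritic cells, -0.57 ± 0.11) and Ighm (the immunoglobulin mu chain, -0.31 ± 0.10, adjusted p = 0.0492). Ighm was 0.03 in the libraries of SB343 alone. Il7r, the interleukin-7 receptor of lymphoid progenitors, had 2 UMIs in granule-primed cells and 67 in other cells, a ratio of 0.0727 (95% counting interval 0.00862 to 0.273; adjusted p = 0.00235 without a filter). Of the other cell types, T and NK cell genes summed to 0 to 93.2 CPM in granule-primed cells and 8.43 to 101.2 CPM in other cells, with 5 of 12 at 0 in granule-primed cells. B and plasma cell genes summed to 14.3 to 72.9 CPM in granule-primed cells and 34.3 to 73.9 CPM in other cells, while erythrocyte and platelet genes summed to 47.4 to 190.0 CPM in granule-primed cells and 120.1 to 467.3 CPM in other cells. Endothelial and stromal genes summed to 12.2 to 121.0 CPM in granule-primed cells and 39.6 to 185.2 CPM in other cells. For each of these 4 lists the highest library of granule-primed cells was below the highest of other cells.

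**Figure D4:**
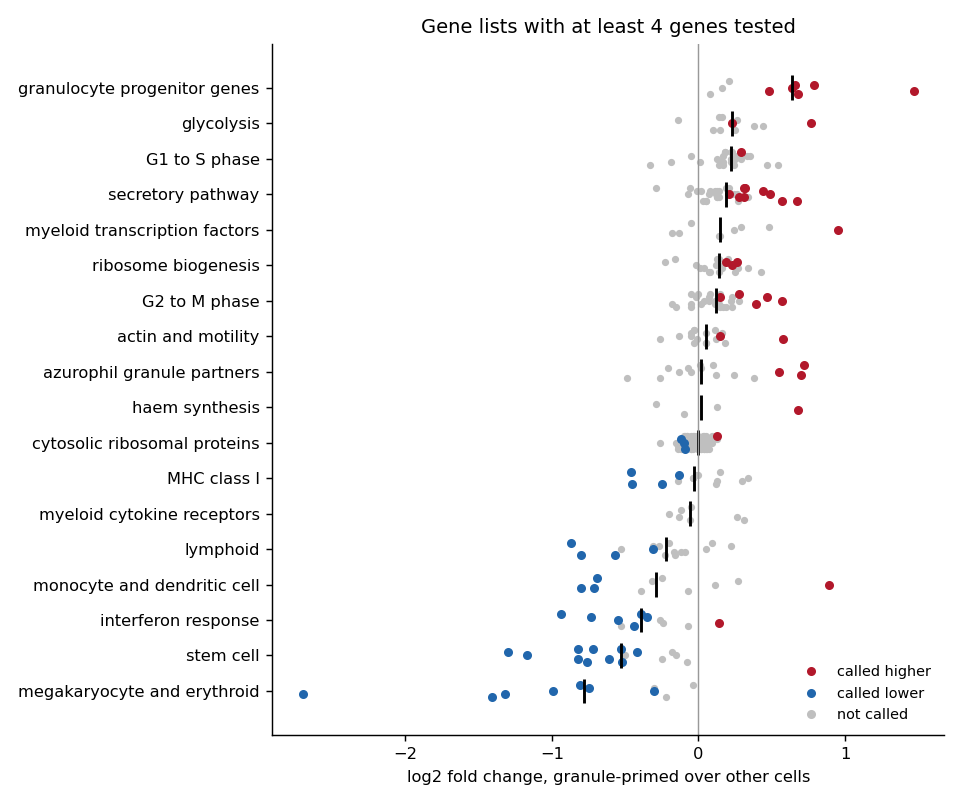
Log2 fold change of each tested gene, granule-primed over other kept cells, by gene list (points; red called higher, blue called lower, grey not called; vertical bar the list's median). The granulocyte progenitor list has the highest median, 0.64, and the megakaryocyte and erythroid list the lowest, -0.78.

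Secretory pathway genes, which fold and move proteins bound for granules, were called higher in 9 of 35 tested and lower in none, with a median of 0.19. Calr led them, with Hspa5 (the chaperone BiP, 0.32 ± 0.06, adjusted p = 9.57e-05), Erp29 (0.49 ± 0.11), Lman1 (a cargo receptor, 0.57 ± 0.15), Hsp90b1, Pdia6, Rpn2, Sec61b and Ssr4 behind. With depth matched 1 of 35 was called, Calr, and the median was 0.17. Their summed level was higher in 16 of 16 libraries, 5660 to 7757 CPM in granule-primed cells and 4748 to 6467 CPM in other cells. Exons of Erp29 overlap those of Naa25 and Tmem116 on the opposite strand.

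Few genes of the growth and metabolism lists were called, with Pgam1 the largest rise among them. Ribosome biogenesis genes were higher in 3 of 22 tested (Ncl, Nhp2 and Eif5a, 0.19 to 0.26), with a median of 0.14 and none called with depth matched. Cytosolic ribosomal proteins were higher in 1 of 75 (Rps2, 0.13 ± 0.03) and lower in 3 (Rps9, Rpl32 and Rpl26), with a median of 0.00 and no call with depth matched; many have processed pseudogenes that can share their reads. Glycolysis genes were higher in 2 of 11, Pgam1 and Gpi1 (0.23 ± 0.07), and only Pgam1 with depth matched. The median of the 11 was 0.23, 10 of the 11 had a positive log2 fold change, and the summed level was higher in granule-primed cells in 16 of 16 libraries. With depth matched the median was 0.22. Haem synthesis genes were called in 1 of 4 tested, Alas1, and actin and motility genes in 2 of 18, Lgals1 and Cfl1 (cofilin, 0.15 ± 0.04). In depth-matched cells 3 of the 18 were higher.

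Calls of cell cycle genes depended on the cells that granule-primed cells were set against. Of 28 tested genes of the G2 to M phase 5 were higher, Top2a (DNA topoisomerase 2, 0.28 ± 0.06), Birc5, Bub1, Tacc3 and Hmgb2, with a median of 0.12. Against depth-matched cells none was higher and 2 were lower, the median was -0.22 and Top2a stood at -0.08. In the G1 to S phase 1 of 26 was higher, Mcm5 (a subunit of the replicative helicase, 0.29 ± 0.08), with a median of 0.22, and none was called with depth matched, where the median was 0.09. The matched cells had a median of 2428 UMIs, all other cells 1386.5 and granule-primed cells 2683. Whether depth or another trait of the matched cells lay behind the difference was not tested.

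MHC class I genes were lower in 4 of 14 tested and higher in none, with a median of -0.03. B2m, its light chain, had 3522, 4170 and 4583 CPM in granule-primed cells, against 4524, 4926 and 5460 CPM in other cells, lower in 16 of 16 libraries (-0.25 ± 0.03, adjusted p = 9.51e-11), and it was still called with depth matched (-0.15, adjusted p = 3.03e-04). H2-Q7 fell by 0.45 and H2-Q6 by 0.46, near-identical genes whose reads may be split between them, and H2-K1 by 0.13. Of 11 tested interferon response genes 6 were lower, among them Rtp4 (-0.73 ± 0.13), Ifi47 (-0.35 ± 0.09) and Irf7 (-0.94 ± 0.26), and 1 was higher, Ly6e (0.14 ± 0.04), with a median of -0.39. None of the 11 was called with depth matched, where the median was -0.27. The deleted genes could not be compared, since the wells' genotypes were not analysed here: Zc3h12a, which encodes Regnase-1, had 32 UMIs in granule-primed cells and 61 in other cells, and Zc3h12c, which encodes Regnase-3, had 17 in granule-primed cells and 60 in other cells. Of 19 Regnase genes and reported targets 3 were tested, and Gata2 was the one called. Nfkbiz, a target known from other cells, had 81 UMIs in granule-primed cells and 125 in other cells.

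The sequencing batches give readings from separate libraries, which may share mice. The same gate set the classes in both batches, so genes that vary with the gate genes agree between them by construction. The share of all tested genes with the same sign was not counted. In SB341 alone 48 genes were higher (0.964% of 4977) and 53 lower (1.06%), and in SB343 alone 57 were higher (1.02% of 5588) and 48 lower (0.859%). Of the 48 rises of SB341, 25 were also called higher in SB343 (52.1%) and 43 had the same sign; of the 53 falls, 19 were also called (35.85%) and 47 had the same sign. Read the other way, these were 43.9% of the rises and 39.6% of the falls of SB343. The median change of the SB341 rises was 0.37 there and 0.25 in SB343, and that of the SB341 falls was -0.68 and -0.33.

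For Ccl9, Plac8, Car2 and Apoe, levels moved along the number of granule UMIs and not only at the gate. Granule UMIs set these steps, so genes that vary with the gate genes move along them by construction. In cells with at most 1 Dntt UMI, Ccl9 had a median over libraries of 52.9 CPM in cells with 0 granule UMIs, 68.8 with 1, 120.2 with 2, 150.1 with 3 or 4, 254.9 with 5 to 9 and 384.2 with 10 or more. Plac8 had 1152 CPM at 0, 1699 at 3 or 4 and 2751 CPM at 10 or more. Calr had 564.3, 556.3 and 564.8 CPM at 0, 1 and 2 granule UMIs, then 718.7, 890.9 and 1306 CPM, so its medians were level below the gate and higher above it. Car2 had 753.3, 731.4, 521.9, 450.4, 312.9 and 123.9 CPM over the same steps, and Apoe 267.0, 225.6, 169.0, 117.5, 70.6 and 37.6 CPM. The summed lymphoid genes had no such course, with 1788 CPM at 0, 1655 at 3 or 4 and 1698 CPM at 10 or more. The limit on Dntt holds on every step and bounds lymphoid genes that vary with it. These values are a description: the median depth was 1145 UMIs at 0 granule UMIs and 3842 at 10 or more, and the last step has 208 cells in the 9 libraries with at least 10 of them. The step of 5 to 9 has 13 libraries and the earlier steps 16, so the medians do not all cover the same libraries. The part of depth in these courses was not tested.

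**Figure D5:**
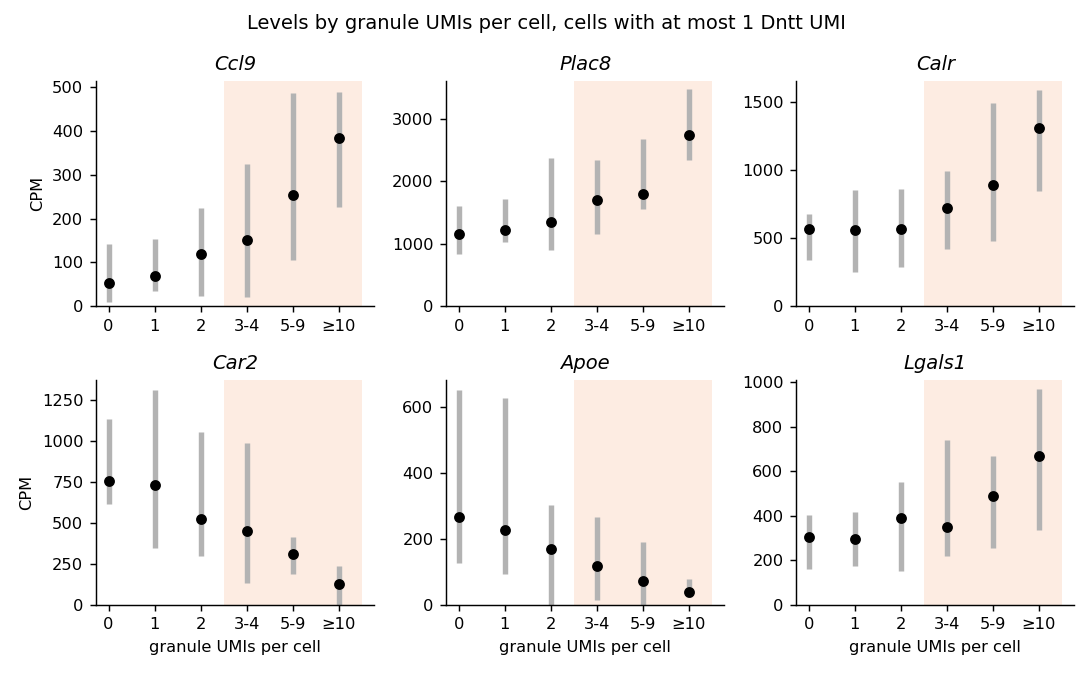
CPM of 6 genes in kept cells with at most 1 Dntt UMI, by the number of granule UMIs in the cell (0, 1, 2, 3 to 4, 5 to 9, 10 or more); points are medians over the libraries with at least 10 such cells, grey bars run from the lowest to the highest library, and shading marks the granule-primed range. Ccl9 medians go from 52.9 to 384.2 CPM and Car2 medians from 753.3 to 123.9 CPM.

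Within the granule-primed cells, granule-richer ones differed from granule-poorer ones in the same direction for several of these genes. In each library granule-primed cells were divided at the median of granule UMIs per UMI of the cell, which gave 482 granule-richer cells (median 3.60 granule UMIs per 1000) and 491 granule-poorer cells (1.42 per 1000). The median depth was 2216 UMIs in the richer cells and 3177 in the poorer cells, a gap that follows from dividing on granule UMIs per UMI among cells with at least 3. Since the division used the gate genes, genes that vary with them differ by construction here too. The p-values are therefore smaller than those of groups set by a label. Of 1431 genes tested, 28 were higher (1.96%) and 11 lower (0.769%) in granule-richer cells. Ccl9 had 119.9, 320.2 and 545.1 CPM in granule-richer cells, against 0, 158.5 and 313.3 CPM in granule-poorer cells (0.99 ± 0.14, adjusted p = 1.75e-07). Plac8 rose by 0.63 ± 0.06, Pgam1 by 0.61 ± 0.12 and Calr by 0.51 ± 0.07, and Plac8 and Ccl9 were higher in 16 of 16 libraries. Car2 was called lower (-1.05 ± 0.15, adjusted p = 2.32e-07), the only call among 4 tested megakaryocyte and erythroid genes, while none of 6 stem cell genes was called. The mitochondrial mt-Cytb rose by 0.23 ± 0.04, mt-Tt by 0.23 ± 0.06, and Tuba1b, a tubulin of dividing cells, fell by 0.20. Of the lists, granulocyte progenitor genes had 3 of 5 called higher (Plac8 and Tyrobp among them) and secretory pathway genes 3 of 26 (Calr, Hspa5 and P4hb).

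Granule-primed cells were also set against the cells that met the granule part of the gate but held 2 or more Dntt UMIs. Only libraries 1, 3, 8 and 16 held at least 10 of the second kind, whose median depth was 4026 UMIs. Of 1703 genes tested 3 were higher (0.176%) and 4 lower (0.235%) in granule-primed cells. Serpina3g, an intracellular serine protease inhibitor, had 142.7 to 243.5 CPM in granule-primed cells, against 0 to 22.5 CPM in cells with granule and Dntt UMIs, 137 UMIs against 3. The ratio of the pooled levels was 14.2 (95% counting interval 4.76 to 69.7), with an adjusted p of 1.84e-06 in the edgeR fit. Its counts belong to a family of near-identical genes and may be shared among them. Ifitm1, an interferon-induced membrane protein also found in stem cells, rose by 1.05 ± 0.25 (adjusted p = 0.0102) and mt-Nd1 by 0.34 ± 0.08. Ighm (-1.5 ± 0.24, adjusted p = 4.79e-07), Sox4 (-1.12 ± 0.23), Satb1 (-1.44 ± 0.36) and Dhrs3 (-1.91 ± 0.45) were lower. Ighm and Satb1 were the 2 called among 12 tested lymphoid genes, and all 7 genes had the same sign in all 4 libraries. The ranges of the classes overlapped for mt-Nd1 alone among the 7. With DESeq2 Ighm alone of the 7 stayed called (adjusted p = 0.00606), while Serpina3g had an adjusted p of 0.0841, Sox4 of 0.142 and the other 4 of 0.379 to 0.908. Without the library as a block, edgeR kept Ighm (adjusted p = 0.0378) and Serpina3g (0.0139), and the other 5 had adjusted p-values of 0.0647 to 0.999. Since Dntt chose the second kind, lymphoid genes that vary with it differ by construction.

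Measures of the whole cell differed by little. The mitochondrial share of UMIs had a median over libraries of 10% in granule-primed cells and 10.65% in other cells, a mean difference of -0.772 percentage points ± 0.549 (SD, n = 16 libraries), lower in all 16 (two-sided exact sign-flip permutation test, adjusted p = 6.1e-05). Against depth-matched cells it was -0.170 points (exact permutation test, adjusted p = 0.439). Genes detected per cell thinned to 500 UMIs were 362 in granule-primed cells and 350.8 in other cells, 9.25 more ± 5.34 (SD, n = 16), higher in 15 of 16 libraries by the same exact permutation test (adjusted p = 6.1e-05). Against depth-matched cells the difference was 1.59 genes (exact permutation test, adjusted p = 0.439).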

How the data were processed

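The authors deposited raw UMI counts per gene and well for 16 plates of 384 wells, and a well table with the sequencing batch and the number of cells of each well, whose batch names and cell numbers the authors deposited as other, non-expression values. The submitters' processing notes name bcl2fastq 2.15.0.4 and build mm10; for the aligner, counting tool and strand setting the sources used here give nothing. The 92 spike-in rows were left out, which left 52542 gene rows. Kept wells were those not listed as empty, with 500 or more UMIs and a mitochondrial share under 20%; library 1, absent from that table, was kept by the UMI and mitochondrial limits only. No doublet caller was run: wells of the other 15 libraries were listed with at most 1 cell, and doublets in library 1 were not checked.

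The gate, the gene lists and the tests were chosen with earlier results of these data known. Counts were summed per library and class where both classes held at least 10 cells and tested with edgeR 4.0.16 in R 4.3.3 (glmQLFit, glmQLFTest, TMM factors, filterByExpr, library as a block because both sums of a pair come from the same plate). Mpo, Prtn3, Ctsg, Elane and Dntt were taken out of the sums. Adjustment (Benjamini-Hochberg) ran over all genes tested. The gene fits were tested on simulated counts with known changes. In the simulation the classes were set by label and not by a cell's own counts, so it does not cover classes set by the gate. Genes were named when called at 0.05 with the same sign in all or all but 1 libraries, at least 50 CPM in a class and a gene symbol (the 12 largest each way, or 6 in the 2 smaller comparisons), with up to 4 called genes of each list each way; defining genes that were not called are given by value, and further list genes were chosen after their values were seen. Alternatives were DESeq2 1.42.0, RLE factors, no filter, no block, cells thinned to 500 UMIs, cells of at least 1000 UMIs, depth-matched other cells, other gates, single batches and leaving out library 1; depth matching on the genes of the first fit was added after seeing the data. Promoters came from RefSeq (GRCm38.p6) and exon overlaps from GENCODE. A few genes are not reported here.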

Additional observations from a re-analysis of the deposited data

Results flagged for a closer look

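Of the wells that failed the cell filter and entered no comparison, 19 met the granule gate, and 13 of them were over the mitochondrial maximum of 20%. The wells listed as empty held 1 granule UMI in all.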

How the results depend on the processing

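The count of genes that differed between granule-primed and other cells moved with the setting. Against 130 higher and 125 lower, the numbers were 95 and 80 with DESeq2, 62 and 278 with no filter on low counts (22651 genes tested), 37 and 30 with cells thinned to 500 UMIs (1175 tested), 88 and 76 with cells of at least 1000 UMIs, 83 and 71 with granule-primed cells of 0 Dntt UMIs, 194 and 203 against cells of 0 granule UMIs (3481 tested), and 48 and 53 in SB341 or 57 and 48 in SB343 alone. With other cells matched on UMIs they were 33 and 29 (2611 tested), and 39 and 36 on the genes of the first fit, a setting chosen after seeing the data. Without the library as a replicate block, 57 were higher and 75 lower; the pairing comes from the shared plate. RLE factors, 5 or more granule UMIs, leaving out library 1 and leaving out cells with granule and Dntt UMIs gave 118 to 176 higher and 118 to 137 lower. Reversed values were Ighm at 0.03 (SB343), Rpl26 at 0.0 (matched, genes of the first fit) and Top2a at -0.09 (matched) and -0.08 (matched, genes of the first fit). For granule-richer against granule-poorer cells the counts, 28 and 11, were 18 and 6 with DESeq2, 6 and 1 without the block, 4 and 4 thinned, 7 and 6 in SB341 and 16 and 7 in SB343. Against cells with granule and Dntt UMIs, 3 and 4 became 0 and 1 with DESeq2 (37 genes at an unadjusted p under 0.05), 1 and 1 without the block, 16 and 1 without a filter and 0 and 0 thinned (edgeR, 5 genes of 165 at an unadjusted p under 0.05); SB343 alone has 1 such library and gave no value. With depth matched the mitochondrial difference was -0.170 points and that of genes per cell 1.59, neither past the threshold. The median share of granule-primed cells was 9.95% to 25.3% over the alternative gates and filters, less than the spread between libraries. For counts that moved, the cause was not tested. Counts per cell limit all of this: 28.7% of granule-primed cells carry exactly 3 granule UMIs, so many lie within counting error of the gate.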

Other observations

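The summed granule genes stood at 408.1 to 969.6 CPM of all kept cells in libraries 1 to 8, and at 1100 to 2176 CPM in libraries 9 to 16. In library order the values were 969.6, 467.9, 590.7, 697.6, 408.1, 692.5, 676.6, 681.7, 1100, 1125, 2176, 1410, 1177, 1727, 1147 and 1721 CPM. These 16 libraries carry the same labels, and the step falls between libraries of the same sequencing batch, SB341. The median number of granule UMIs per granule-primed cell was 3.5 to 5 in libraries 1 to 8 and 5 to 6 in libraries 9 to 16.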
